A study of Homo sapiens with 8 samples.

Results

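The stress bZIP factors are transcription factors that bind DNA through a basic region and pair through a leucine zipper. Here they are 10 genes chosen by name, ATF4, ATF5, DDIT3 (which encodes CHOP), ATF3, CEBPB, CEBPG, XBP1, ATF6, ATF2 and CREB1, out of 19964 genes with a coding transcript. All 10 were found. Their 30 coding transcripts were reduced to 1 per gene, the transcript with the most ribo-seq reads on its coding sequence (CDS) in the control libraries. The cells were HEK293T, an established human embryonic kidney line, given vehicle (control) or 40 µM sodium arsenite for 30 min. Ribo-seq, which sequences the RNA fragments protected by ribosomes, and mRNA-seq of fragmented mRNA were made from the same lysates, in 2 independent replicates, which gave 8 libraries. Cycloheximide, which arrests elongating ribosomes, was present in the wash of all groups.

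Arsenite causes oxidative stress and leads to phosphorylation of the initiation factor eIF2, which lowers the supply of initiator tRNA to ribosomes. Some mRNAs, with ATF4 as the textbook case, carry short open reading frames in the 5′ leader, the stretch before the CDS, that hold ribosomes back from the CDS in unstressed cells and let more of them through when eIF2 is limiting. ATF4 protein then activates stress genes, among them ATF3 and DDIT3. XBP1 and ATF6 belong to other branches of the unfolded protein response: XBP1 mRNA is spliced in the cytoplasm by the kinase and nuclease IRE1, and ATF6 is a membrane protein released by proteolysis.

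The libraries held 1023989 to 7270582 ribo-seq reads and 3992449 to 21715178 mRNA-seq reads on the chosen transcripts, with replicate 1 the shallower in both assays. Among marker genes of the line, VIM had 1074 to 9008 and NEFM 164 to 2600 mRNA-seq reads, and KRT8 had 43 to 158. HBB, CD3E and INS, markers of other cell types, had 0 in all 4 mRNA-seq libraries, ALB had 0 to 4 and PTPRC 2 to 15. Levels are counts per 1000000 reads (CPM), scaled by TMM, a normalization that sets the bulk of mRNAs to no change. A rise is therefore a rise relative to other mRNAs, and a general fall in translation is not visible on this scale. The test was edgeR's quasi-likelihood test of each change, with the replicate as a block and Benjamini-Hochberg adjustment over all genes tested, and changes are log2 values with their standard error (SE).

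The 10 genes fell into different patterns. They and the gene lists below were chosen with earlier results of these data known. Shares over all genes are therefore given for scale and are not a test of the lists. Ribosome occupancy of the CDS, the amount of ribo-seq reads there, rose for 4 of the 10, ATF5, ATF4, DDIT3 and XBP1, against 1.42% of the 10291 genes tested that rose. Translation efficiency (TE), the change in occupancy beyond the change in mRNA, rose for 3 of the 10, ATF5, ATF4 and XBP1, against 0.983% of 10273 genes. RNA level rose for 2 of the 10, DDIT3 and ATF3, against 3.75% of 12599 genes. With edgeR 0 of the 10 fell in these comparisons. Over all genes, 725 of 12599 passed in RNA level, 285 of 10291 in occupancy and 203 of 10273 in TE, rises and falls together. With so few calls, 0 falls among 10 genes says little about them. ATF2 alone had a negative change at an unadjusted p under 0.05, in TE. In that test 2170 of 10273 genes were under 0.05 in either direction, so 1 such gene is not unusual. The median log2 TE change over the 10 was 0.13, beside -0.01 over all genes tested.

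**Figure D1:**
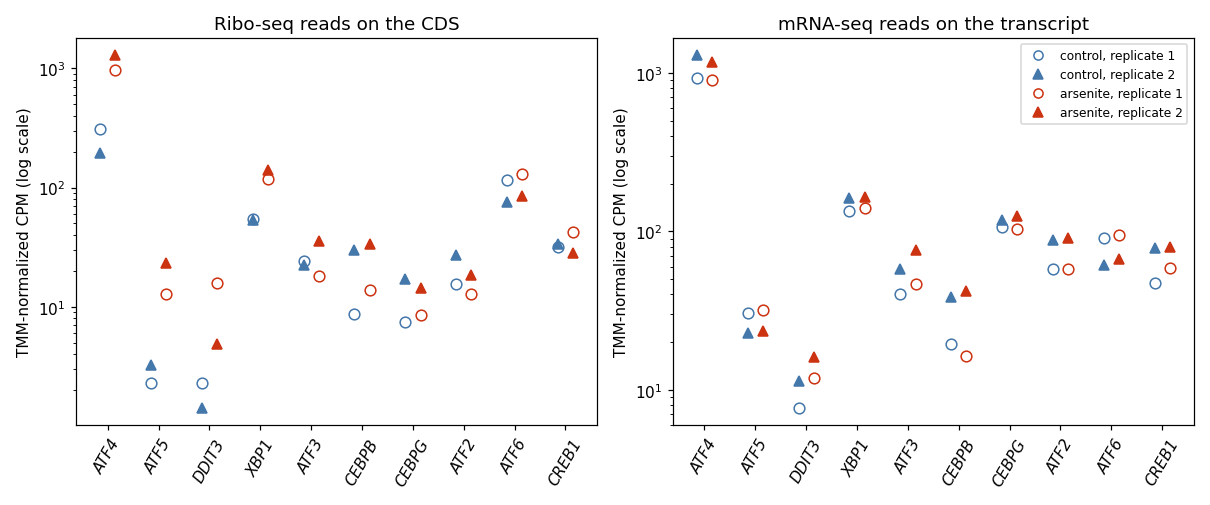
TMM-normalized CPM (log scale) of the 10 bZIP genes for ribo-seq reads on the CDS (left) and mRNA-seq reads on the transcript (right), 1 point per library. In ribo-seq both arsenite points of ATF4, ATF5, DDIT3 and XBP1 lie above both control points. In mRNA-seq DDIT3 is the only gene of the 10 whose groups do not overlap. The share of all genes whose groups separate in this way was not computed. Separation of groups, here and in the text, therefore describes the points and is not a test.

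ATF4 is the central transcription factor of the integrated stress response. Its CDS occupancy was 312.9 and 196 CPM in control (replicates 1 and 2) against 969 and 1284 in arsenite. The arsenite values were above both control values, and the log2 change was 2.18 (SE 0.224, adjusted p = 8.06e-06, edgeR), a 4.54-fold rise with a 95% interval of 3.29 to 6.27. The mRNA was at 927 and 1288 CPM in control and 907 and 1176 in arsenite. The mRNA groups overlapped, and the log2 change of -0.09 (SE 0.049) did not pass the threshold (adjusted p = 0.341, edgeR). The log2 TE change was 2.28 (SE 0.288, adjusted p = 0.0114, edgeR), at 1.66 in replicate 1 and 2.84 in replicate 2, and ranked 8 among 10273 genes.

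ATF5, a factor related to ATF4 whose leader also holds upstream open reading frames, was measured on far fewer reads. Its CDS occupancy was 2.31 and 3.24 CPM in control and 12.7 and 23.2 in arsenite. The groups did not overlap, and the rise was 6.73-fold (95% interval 3.87 to 11.7), a log2 change of 2.75 (SE 0.386, adjusted p = 0.000387, edgeR). Its mRNA was at 30.4 and 22.9 CPM in control and 32 and 23.5 in arsenite, so that the replicates differed more than the treatments. The log2 RNA change was 0.05 (SE 0.095, adjusted p = 0.851, edgeR). The log2 TE change was 2.28 within replicate 1 and 2.78 within replicate 2, and the estimate ranked 4 among 10273 genes. The interval of the ATF5 TE change, 2.09 to 3.38, overlapped that of ATF4, 1.63 to 2.92.

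DDIT3 encodes CHOP, a factor that pairs with C/EBP proteins and promotes cell death under prolonged stress. It was the only gene of the 10 past the threshold in both RNA level and CDS occupancy. The mRNA was at 7.72 and 11.3 CPM in control and 11.9 and 16.2 in arsenite, and the log2 change was 0.53 (SE 0.124, adjusted p = 0.00115, edgeR). The CDS held only 4 and 11 ribo-seq reads in control against 15 and 16 in arsenite, or 2.31 and 1.43 CPM against 15.9 and 4.89 CPM. These groups did not overlap, although the arsenite values of the replicates lay far apart. The log2 occupancy change was 2.14 (SE 0.497, adjusted p = 0.0242, edgeR), and the log2 TE change was 1.60 (SE 0.445). That TE change did not pass the threshold (adjusted p = 0.0869, edgeR), and its 95% interval, 0.60 to 2.60, overlapped those of ATF4 and ATF5.

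ATF3, a stress-induced repressor and activator that can be transcribed under ATF4, passed the test in RNA level but not in occupancy or TE. Its mRNA was at 40.2 and 57.5 CPM in control and 46.5 and 76.2 in arsenite. The ranges overlapped between groups because replicate 2 was higher throughout, but both replicates rose, by 0.21 and 0.40 on the log2 scale, and the change of 0.37 (SE 0.070) passed the test (adjusted p = 1.48e-05, edgeR). CDS occupancy was 24.2 and 22.4 CPM in control and 18.1 and 35.5 in arsenite, lower in replicate 1 and higher in replicate 2. Its log2 TE change was 0.10 (SE 0.245, 95% interval -0.46 to 0.65), an interval that lay below those of ATF4 and ATF5.

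CEBPB and CEBPG are C/EBP factors that can form dimers with ATF4 or CHOP. CEBPB had 8.64 and 29.7 CPM on its CDS in control and 13.8 and 33.3 in arsenite, so the replicates differed more than the treatments. Its log2 changes were 0.07 in RNA and 0.17 in TE (95% interval of TE -0.32 to 0.66). CEBPG had 7.49 and 17 ribo-seq CPM in control and 8.50 and 14.4 in arsenite, and a log2 TE change of -0.22 (95% interval -0.76 to 0.32). Neither gene passed any of the tests, and the TE change of CEBPG had opposite signs in the replicates.

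XBP1, the factor of the IRE1 branch, had the smallest SE among the 4 genes whose occupancy rose. CDS occupancy was 54.7 and 53.3 CPM in control and 117.9 and 140.6 in arsenite. The groups stood well apart, with a 2.42-fold rise (95% interval 1.80 to 3.25), a log2 change of 1.27 (SE 0.204, adjusted p = 0.00125, edgeR). The mRNA was at 134.6 and 161.5 CPM in control and 140.5 and 164.6 in arsenite, and its log2 change of 0.04 (SE 0.055) did not pass the threshold. The log2 TE change was 1.26 (SE 0.162, adjusted p = 0.0116, edgeR), at 1.04 and 1.37 in the replicates, and its interval of 0.89 to 1.62 lay just below that of ATF4. The TE call of XBP1 was lost when any 1 of the mRNA-seq libraries was left out, whereas ATF4 and ATF5 kept theirs. These fits, with a replicate effect for each assay, were chosen after seeing the data. Few genes of any kind passed in them, and the log2 TE change of XBP1 was 1.21 to 1.24. When any 1 of the ribo-seq libraries was left out in the same way, the XBP1 change was 1.07 to 1.36. In both assays, leaving out either library of a replicate gave nearly the same estimate. The other library of that replicate then no longer informs the change, so these are not separate checks of each library. On the CDS of the unspliced form, also chosen after seeing the data, the TE change was 1.29 (adjusted p = 0.0108, edgeR).

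ATF6, ATF2 and CREB1 completed the set. ATF6 had 115.3 and 76.2 CPM on its CDS in control and 130.7 and 84.4 in arsenite, and a log2 TE change of 0.06 (95% interval -0.27 to 0.39). CREB1, which is activated by phosphorylation and best known for the cyclic AMP response, had 31.7 and 33.6 in control and 42.5 and 28.4 in arsenite. It moved up in replicate 1 and down in replicate 2, with a log2 TE change of -0.16 (95% interval -0.66 to 0.34). ATF2, a partner of JUN that is activated by stress kinases, had 15.6 and 27.1 in control and 12.7 and 18.3 in arsenite. ATF2 had the lowest TE change of the 10, -0.55 (SE 0.205), negative in both replicates at -0.25 and -0.61, but it did not pass the threshold (adjusted p = 0.17, edgeR). The interval of ATF2, -1.02 to -0.09, did not overlap those of ATF4, ATF5, XBP1 or DDIT3.

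**Figure D2:**
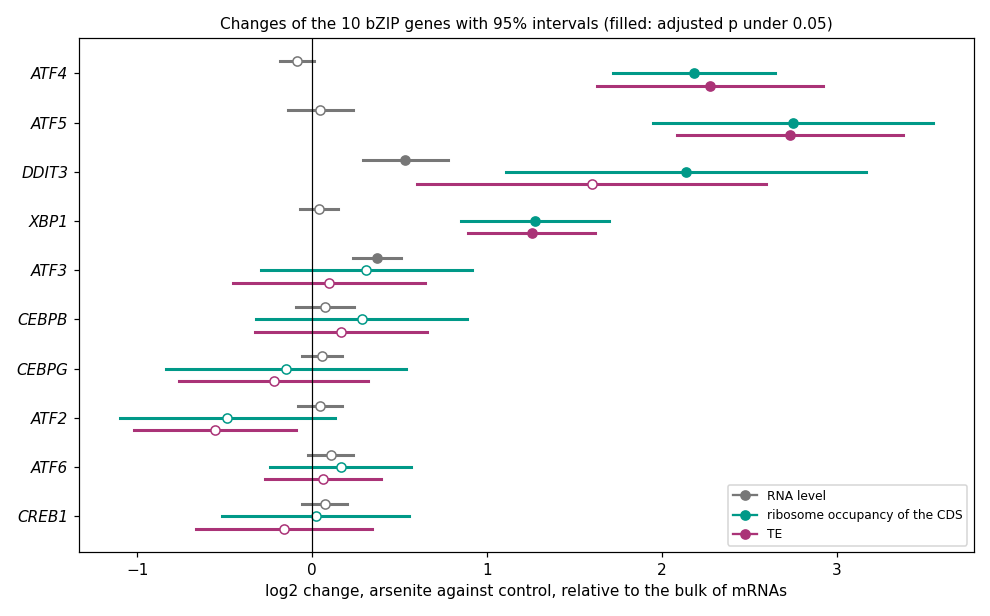
Log2 change from control to arsenite (x axis, relative to the bulk of mRNAs) of RNA level, ribosome occupancy of the CDS and TE for each gene, with 95% intervals from edgeR and filled points at an adjusted p under 0.05. Occupancy and TE of ATF4, ATF5, DDIT3 and XBP1 lie to the right of 0, RNA level is filled only for DDIT3 and ATF3, and the TE interval of ATF2 lies to the left of 0 with an open point.

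The TE calls depended on how the replicates were modelled. With a single replicate effect shared by both assays, instead of 1 for each assay, no gene passed in TE (400 of 10273 at an unadjusted p under 0.05), although the log2 estimates were 2.21 for ATF4, 2.62 for ATF5 and 1.22 for XBP1. With DESeq2 and the replicate effect of each assay kept, 117 genes passed, ATF4 and XBP1 among them, and ATF5 was given no adjusted p.

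How well each CDS was translated in unstressed cells differed between the genes. The level used here is the share of a library's ribo-seq CDS reads that fell on a gene, divided by the share of its mRNA-seq CDS reads, so that CDS length cancels out. In control it was 0.0940 and 0.250 for ATF5, 0.296 and 0.119 for ATF4, 0.307 and 0.140 for DDIT3 and 0.301 and 0.351 for XBP1. On the transcripts used, these 4 genes lay in the lower part of the 10260 genes with a value, at percentiles of 0.595 to 12.9. For XBP1 this depended on the transcript, since on the CDS of its unspliced form the control level was 0.506 and 0.520, at percentiles of 28.5 and 21.2. The median gene was at 0.770 and 0.874. CEBPG (0.148 and 0.536) and ATF2 (0.303 and 0.566) were also below that median in control, yet neither passed in TE after arsenite. The levels share their ribo-seq CDS reads with the test of TE. A control count that is low by counting error lowers the control level and raises the TE change. Low control levels and rises in TE are therefore not independent observations. Ordered by the mean of the control replicates, ATF5, ATF4, DDIT3, XBP1, CEBPG and ATF2 came lowest, and each overlapped its neighbours on the transcripts used. CEBPB was at 0.456 and 1.02, ATF3 at 0.928 and 0.905, ATF6 at 1.13 and 1.26 and CREB1 at 1.43 and 1.38, and ATF3, ATF6 and CREB1 lay above the median in both replicates, without overlap between any 2 of them.

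After arsenite the genes that had risen were no longer among the lowest, with an exception. Since the levels share reads with the test of TE, this follows in part from the rise itself. ATF4 was at 0.933 and 0.877, XBP1 at 0.661 and 0.938 (1.17 and 1.42 on the unspliced CDS) and ATF5 at 0.524 and 1.89. ATF4 lay close to the median gene of the arsenite libraries, 0.786 and 0.894, and ATF5 below it in replicate 1 and above it in replicate 2. DDIT3 reached 1.25 in replicate 1, on 15 ribo-seq reads, but only 0.335 in replicate 2, still at the 8.98 percentile. CEBPG (0.206 and 0.461) and ATF2 (0.264 and 0.379) were the lowest of the 10 when averaged over the arsenite replicates.

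**Figure D3:**
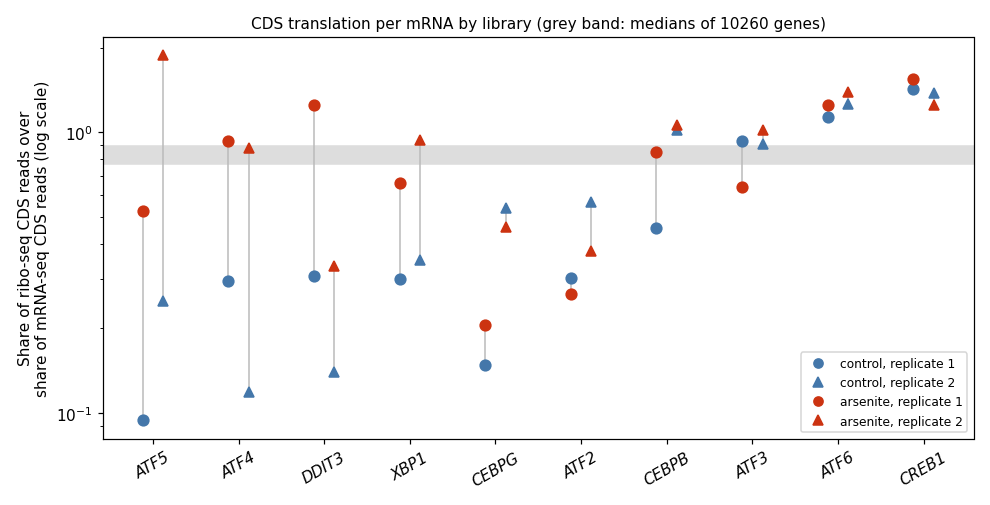
Share of ribo-seq CDS reads divided by share of mRNA-seq CDS reads (y axis, log scale) for each gene and library, ordered by the control mean, with lines joining control and arsenite of 1 replicate. Lines of ATF5, ATF4, DDIT3 and XBP1 run upward in both replicates from below the grey band, which spans the medians of all genes in the 4 library pairs, whereas ATF3, ATF6 and CREB1 start above the band.

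Ribo-seq reads on the leader were set against those on the CDS of the same gene. On the ATF4 transcript NM_182810 the leader held 23 of 566 leader and CDS ribo-seq reads in control replicate 1, 4.06% (exact 95% interval 2.59% to 6.04%), and 26 of 938 in arsenite, 2.77% (1.82% to 4.04%). In replicate 2 it held 259 of 1770 reads in control, 14.6% (13% to 16.4%), and 356 of 4554 in arsenite, 7.82% (7.05% to 8.64%). The share fell in both replicates, and only in replicate 2 did the intervals, which cover counting error alone, not overlap. In mRNA-seq the ATF4 leader took 18.7% and 17.7% of leader and CDS reads in control against 17.3% and 17.4% in arsenite. The other ATF4 transcript, NM_001675, has the same CDS counts and a leader with 22 and 221 ribo-seq reads in control against 26 and 303 in arsenite.

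Relative to the CDS reads of the bulk of mRNAs, the fall in the ATF4 leader share was not a loss of leader reads. A general fall in translation is not visible on this scale. Leader occupancy of ATF4 was 13.3 and 33.6 CPM in control and 27.6 and 108.8 in arsenite, higher in each replicate although the ranges overlapped. The log2 change was 1.47 (SE 0.264, adjusted p = 1.19e-05, edgeR), on the scale set by CDS reads. Only 2 of the 10 genes had the mean of 10 leader reads needed for this test, ATF4 and ATF5, and ATF4 alone passed, against 2.57% of 661 genes. On the same scale the median gene rose by 0.79, so leaders in general gained reads relative to CDSs. Measured against other leaders, the ATF4 change was 0.81 and no longer passed (adjusted p = 0.724, edgeR).

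The change of the leader to CDS balance itself was tested as the interaction of region and treatment, positive for a shift toward the CDS. The median gene shifted toward the leader, at -0.80 over 658 genes, while ATF4 shifted toward the CDS by 0.70 (SE 0.490, 95% interval -0.48 to 1.88) and ATF5 by 2.36 (SE 0.639, 95% interval 0.83 to 3.90). Neither passed the threshold (adjusted p = 0.354 and 0.1, edgeR), and 0.152% of the genes rose in this test. ATF5 ranked 2 and ATF4 ranked 23 among the 658 genes. The ATF5 value rested on replicate 2, since the change within a replicate was -0.11 in replicate 1 and 2.53 in replicate 2, while that of ATF4 was 0.57 and 1.02. The ATF5 shift was past the threshold when genes with few reads were kept (log2 2.39, adjusted p = 0.0394, edgeR).

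ATF5 showed the largest swing of leader share, but in 1 replicate. In replicate 2 its leader held 41 of 66 reads in control, 62.1% (49.3% to 73.8%), and 21 of 97 in arsenite, 21.6% (13.9% to 31.2%), and these intervals did not overlap. In replicate 1 there were 0 leader reads beside 4 CDS reads in control, which by the limit of 3 counts allows a share of up to 75%, and 1 beside 12 in arsenite. Replicate 1 therefore could not show a difference at this depth. In mRNA-seq the ATF5 leader share was 23.5% and 35.8% in control and 24.1% and 39.9% in arsenite.

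DDIT3 did not show the shift from leader to CDS that ATF5 showed in replicate 2. There were 0 and 9 leader reads in control against 5 and 25 in arsenite, so that the leader gained reads along with the CDS. In replicate 2 the leader share was 45% (23.1% to 68.5%) in control and 61% (44.5% to 75.8%) in arsenite, and the intervals overlapped. In arsenite replicate 1 it was 25% (8.66% to 49.1%) on 20 reads. The mean of its leader counts was below the minimum, and the difference between the shifts of DDIT3 and ATF5 was not tested.

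XBP1 rose in TE with no ribo-seq read assigned to its leader. The leader had 0 reads in all 4 ribo-seq libraries, beside 95 and 411 CDS reads in control against 111 and 460 in arsenite. With 3 counts as the limit that a count of 0 allows, the leader share was up to 0.730% in control and 0.652% in arsenite in replicate 2. The annotated XBP1 leader was also thinly covered in mRNA-seq, with 1 and 37 reads in control against 4 and 45 in arsenite, or 0.217% to 2.09% of leader and CDS reads. Leader reads on XBP1 were thus not detectable at this depth in either condition.

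The 2 XBP1 transcripts in the counts differ by the stretch that IRE1 removes, and the spliced form (NM_001079539) has a longer CDS. Ribo-seq reads in the CDS stretch beyond the stop codon of the unspliced form (NM_005080) were 11 and 35 in control and 9 and 28 in arsenite, beside 84 and 392, then 103 and 440, in the unspliced CDS. That stretch held 11.6% (exact 95% interval 5.92% to 19.8%) and 8.20% (5.78% to 11.2%) of these reads in control against 8.04% (3.74% to 14.7%) and 5.98% (4.01% to 8.53%) in arsenite. The share was lower after arsenite in both replicates, with overlapping intervals. In mRNA-seq the same stretch held 47.7% and 36.1% of the reads in control against 47.8% and 37.1% in arsenite, so ribo-seq reads were more concentrated before the stop codon of the unspliced form. The transcript of the unspliced form held more reads than the spliced one in 7 of the 8 libraries, by 1 to 16 reads, and the same number in control ribo-seq replicate 1.

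The other 6 genes had few leader reads. ATF2 had 8 and 12 in control and 3 and 7 in arsenite, shares of 22.9% and 5.43% in control and 20% and 10.4% in arsenite with overlapping intervals within each replicate. ATF3, CEBPB, CEBPG, ATF6 and CREB1 had 0 to 4 leader reads in each library. For ATF3 the split between leader and CDS depended on the annotated CDS of the transcript. In control replicate 2 the transcript used here, NM_001674, held 177 reads, 4 on the leader and 173 on the CDS. NM_001206488, whose annotated CDS has fewer reads, held 169 reads, 51 on the leader and 118 on the CDS. Reads counted as leader on NM_001206488 can thus be CDS reads of NM_001674, and the counts do not separate them. For CEBPG the leader share was 1.5% in control and 7.84% (2.18% to 18.9%) in arsenite in replicate 2, on 2 and 4 leader reads.

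**Figure D4:**
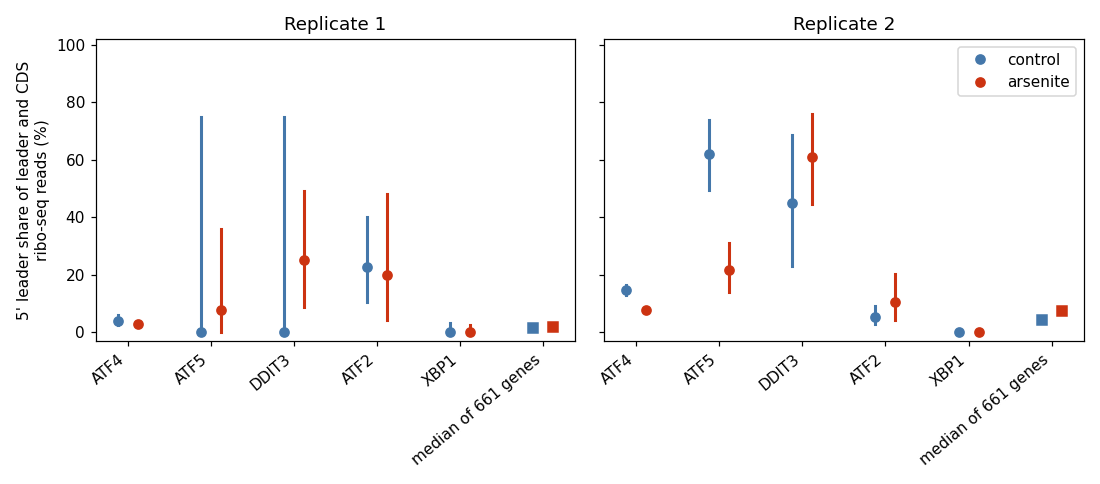
Share of leader and CDS ribo-seq reads that lay in the 5′ leader (y axis, %), for 5 of the bZIP genes and as the median of 661 genes (squares), in control and arsenite, 1 panel per replicate, with exact 95% intervals, or for a count of 0 a line up to 3 counts, both covering counting error only. In replicate 2 the share fell for ATF4 from 14.6% to 7.82% and for ATF5 from 62.1% to 21.6%, was 45% and then 61% for DDIT3 and stayed at 0 for XBP1, while the median gene went from 4.37% to 7.53%.

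Genes most like ATF4 were ranked by distance over 6 values, the log2 changes of leader ribo-seq, CDS ribo-seq and mRNA-seq reads in each replicate, among the 661 genes with enough leader reads. The 5 nearest were C19orf48 (distance 1.08), LRRC8B (1.52), UCP2 (1.74), C6orf48 (1.75) and IFRD1 (1.85), where the median gene was at 3.57. C19orf48 rose on the CDS by 1.96 and 2.85 on the log2 scale, from 4 and 18 reads to 9 and 56. C6orf48 had 0 CDS reads in both libraries of replicate 1, so the CDS change of 0.88 that entered its distance there came from the prior count and the library sizes alone. ATF5, the other bZIP gene with enough leader reads, ranked 15 at a distance of 2.13. In replicate 1 it had 0 leader reads in control and 1 in arsenite. The leader change of 2.47 that entered its distance there thus rested largely on the prior count.

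A list of other bZIP genes was examined in the same way. The JUN and FOS families were not in it. Of 36 other bZIP genes, 22 had enough reads for TE, and 1 of the 22 rose (0.983% of all genes), CREBZF, by 1.03 (SE 0.195, adjusted p = 0.0375, edgeR), with a list median of 0.07. In RNA level 0 of 31 rose and 2 fell, beside 5.75% of all genes that changed in either direction. These were CREBZF, which fell by 0.17, and JDP2, a repressor related to ATF3, which fell by 0.47 (adjusted p = 0.0278 and 0.0446, edgeR).

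Among 19 genes that act on these factors, which include the eIF2 kinases, the eIF2 phosphatase subunits, IRE1 (ERN1) and the proteases that release ATF6, 3 rose in TE, beside 0.983% of all genes. PPP1R15A, the inducible phosphatase subunit that counters eIF2 phosphorylation and is itself a target of the ATF4 and CHOP pathway, rose by 2.94 (SE 0.286, adjusted p = 0.00492, edgeR). PPP1R15B, the constitutive subunit, rose by 1.29 (SE 0.169, adjusted p = 0.0127, edgeR). MBTPS1, the protease that makes the first cut in ATF6, rose by 1.04 (SE 0.171, adjusted p = 0.029, edgeR). The list median was -0.07, and ERN1 and the eIF2 kinases EIF2AK1, EIF2AK2, EIF2AK3 and EIF2AK4 did not pass the threshold.

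Target genes of the factors were followed at the RNA level. Of 10 genes activated by ATF4 or CHOP, 3 rose, beside 3.75% of all genes: CHAC1, which degrades glutathione, by 0.47 (SE 0.130, adjusted p = 0.0103), DDIT4, an inhibitor of mTORC1, by 0.29 (SE 0.056, adjusted p = 1.72e-05), and WARS, the tryptophanyl-tRNA synthetase, by 0.16 (adjusted p = 0.041), all from edgeR. The DDIT4 change was 0.05 in replicate 1 and 0.38 in replicate 2. The list median was 0.15, beside -0.01 over all genes, and ASNS and TRIB3, also targets of ATF4, were at 0.04 and 0.01 without passing. Of 10 genes activated by ATF6 or XBP1, 3 changed, beside 5.75% of all genes. The chaperones CALR and PDIA4 rose by 0.20 and 0.17 (adjusted p = 0.00203 and 0.0292, edgeR). SEC61B, a subunit of the translocon, fell by 0.19 (adjusted p = 0.0262, edgeR). The SEC61B change was 0.09 in replicate 1 and -0.27 in replicate 2, so the replicates had opposite signs. HSPA5, the endoplasmic reticulum chaperone BiP, was at 0.03. In CDS occupancy and TE, 0 genes of either target list passed with edgeR, beside 285 of 10291 and 203 of 10273 of all genes. At an unadjusted p under 0.05 there were 0 target genes in occupancy, beside 1812 of 10291 genes. In TE there were 2 of the 10 ATF4 or CHOP targets and 1 of the 10 others, beside 2170 of 10273 genes.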

How the data were processed

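Ribo-seq and mRNA-seq of HEK293T cells covered control and arsenite, with 2 replicates of each. The deposited counts are raw reads per RefSeq transcript, with the CDS, the 5′ leader and the 3′ UTR of coding transcripts counted separately. Per the study's methods and the submitters' processing notes, the authors trimmed adapters with cutadapt, removed rRNA and spike-in reads, aligned the rest with Bowtie 1.0.0 and kept reads unique to a gene. No genome build was stated, so no coordinates are given. Counts of 1 transcript of a gene cannot be told from those of its other transcripts where they share sequence.

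The members and the gene lists were chosen with earlier results of these data known. All members are named. From each other list, at most 4 genes with the smallest adjusted p among those past the threshold are named, with a few that did not pass chosen after their values were seen. Ties between transcripts (2333 genes) were broken by control ribo-seq, then control mRNA-seq reads, a step added after seeing the data. Genes averaging at least 10 counts entered the tests, made with edgeR 4.0.16 (R 4.3.3), with TMM, the replicate as a block (within each assay for TE, within each region for the leader to CDS shift) and a threshold of 0.05. Both leader fits used the library sizes of the CDS fit, and the leader and CDS counts of a library are not independent. A prior count of 0.5 was added for changes inside 1 replicate. With 2 samples against 2, no exact permutation test can reach 0.05. Intervals of shares are exact binomial (95%), and a count of 0 was bounded by 3 counts. Both cover counting error only. DESeq2 1.42.0 was an alternative. In simulated counts with known changes, 193 of 200 genes changed 4-fold in CDS occupancy were recovered among 10176 genes. For TE, 183 of 200 genes changed 4-fold in ribo-seq and 57 of 200 changed 2-fold in mRNA were recovered among 10158, and for the leader to CDS shift, 14 of 20 changed 8-fold in the leader and 7 of 14 changed 4-fold in the CDS among 614. The simulation gave all genes the same spread within a kind of read and had no replicate effect. The genes changed in it averaged more reads than the minimum for the tests. Recovery in the real libraries can therefore be lower. Tables and figures used Python 3.11.15, pandas 2.3.3, numpy 2.4.6 and matplotlib 3.10.9.

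The replicates differed in adapters and sequencing runs, so the replicate number pairs the samples. Libraries of the same number deviated together, and their departures from the group means correlated at 0.689 in ribo-seq (10291 genes) and 0.709 in mRNA-seq (12599 genes).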

Additional observations from a re-analysis of the deposited data

How the results depend on the processing

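Depth limits DDIT3 and ATF5 most, with 4 CDS ribo-seq reads each in control replicate 1. Of 379 single-gene values tested under alternatives, 114 were of genes that had passed. Of these 72 kept the call and direction, 42 lost the call and 0 reversed. Most of the lost calls came from fits, given below, in which no gene of any kind passed. Those losses say nothing on these genes in particular. Of 265 of genes that had not passed, 234 stayed so in the same direction, 5 gained the call and 26 changed sign without one. Of 68 untested values within 1 replicate, 10 went against the fit, none of a gene that had passed. Without the replicate block 0 genes and 0 of the 10 factors passed in RNA level, occupancy, TE, leader occupancy and shift (28, 150, 147, 0 and 3 genes at an unadjusted p under 0.05). With 1 additive replicate block 0 genes and 0 factors passed in TE. Leaving out single libraries under the additive block also gave 0 in TE, which says nothing on stability since that block called none with all libraries. With the block within each assay, an alternative added after seeing the data that takes the spread of the incomplete assay from the other one, 2381, 1638, 2392 and 1671 genes and 4 factors each passed without control ribo-seq replicates 1 and 2 and arsenite ribo-seq replicates 1 and 2, and 8, 9, 8 and 9 genes and 2 factors each without the mRNA-seq libraries in the same order. The fourth factor was ATF2 without either replicate 1 ribo-seq library (-0.61, adjusted p = 0.0294 to 0.0313, edgeR) and DDIT3 without either of replicate 2 (2.25 and 2.26, adjusted p = 0.0178 and 0.0184, edgeR). With DESeq2, 86 genes passed in RNA level, 54 in occupancy, 117 in TE and 4 in shift, where edgeR gave 725, 285, 203 and 1. DESeq2 gave an adjusted p to 3 of the 10 factors in RNA level (0 passed, none given for ATF3 and DDIT3) and 3 in occupancy (2 passed, none given for ATF5 and DDIT3). Of its calls in RNA level 93% were higher, against 65.2% with edgeR. Without the filter on low counts 539 genes passed in occupancy, 434 in TE, 4 in leader occupancy and 106 in shift, where 1 factor (ATF5) passed. With a mean of at least 50 counts 581 genes and 2 of 7 factors passed in occupancy, 118 genes in TE and 4 in shift. Upper-quartile normalization gave 473 in occupancy. Counting mRNA-seq reads on the CDS gave 343 in RNA level and 94 in TE. TMM on the leader counts gave 0 genes and 0 factors in leader occupancy (37 at an unadjusted p under 0.05), and moved the median of all leaders from 0.79 to 0.09. With mRNA-seq reads on the CDS the RNA changes were -0.022 for ATF5 and -0.061 for CEBPG. The TE change of ATF3 was -0.032 with DESeq2, -0.064 without the replicate block and -0.092 with the additive one, and the leader change of ATF5 was -0.41 with TMM on the leader counts. With the block within each assay, TE without control and arsenite ribo-seq replicate 2 was -0.79 and -0.78 for ATF3, 0.13 and 0.13 for CEBPG and 0.35 and 0.35 for CREB1, and -0.085 and -0.085 for ATF3 without control and arsenite mRNA-seq replicate 1. Over the remaining fits that left out a replicate or library, TE ran from -0.61 to 0.26 for ATF3, -0.40 to 0.50 for CEBPG and -0.56 to 0.48 for CREB1, RNA level from -0.26 to 0.12 for CEBPB, -0.034 to 0.089 for CEBPG and -0.0013 to 0.058 for ATF2, occupancy from -0.40 to 0.66 for ATF3, -0.23 to 0.21 for CEBPG and -0.24 to 0.43 for CREB1, and the shift from -0.11 to 2.53 for ATF5. The causes were not tested.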
